A study of Mus musculus with 6 samples.

Results

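The genes of the D cyclins, Ccnd1, Ccnd2 and Ccnd3, and of the kinases they activate, Cdk4 and Cdk6, were compared between ipsilateral and contralateral retinal ganglion cells (RGCs) of the embryonic mouse. They were followed at every probe set (a group of short probes that together read 1 transcript region) annotated to exactly 1 of these 5 symbols, which gave 19 of the 45037 probe sets on the array. Ccnd2 has 7 of them and each of the other genes has 3.

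Ipsilateral RGCs send their axon to the brain on their own side and contralateral RGCs send it across the optic chiasm. Both groups came from C57BL/6J embryos whose age the sample records give as day 16 and the methods as E16.5, and no mutant or drug was part of the design. In each of 3 rounds, rhodamine dextran was put on the severed optic tract and left for 2 h to travel back along the axons. Retinas from 2 litters were combined for each side and dissociated with papain, living dye-filled cells were collected by FACS, and their RNA was amplified as cDNA. Each round supplied a pair of samples, 1 per side, so there were 6 arrays. Only rounds with high Zic2 in the ipsilateral cells by qPCR were put on arrays, and a sample is a pool of animals, so differences between embryos were not measured.

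D cyclins are made in response to growth signals in the G1 phase of the cell cycle. They bind and activate Cdk4 or Cdk6, which phosphorylate the retinoblastoma protein and its relatives, and E2F factors are then free to switch on genes for DNA replication. In the developing retina cyclin D1 is the main D cyclin of dividing progenitors, whereas RGCs have left the cell cycle.

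Cyclin D2, cyclin D1 and the kinase Cdk6 had higher transcript levels in the ipsilateral sample of all 3 rounds. Cdk4 was higher in all 3 rounds too, but by less than 2-fold, and cyclin D3 differed little. At the brightest probe set of each gene, the one with the highest mean over the 6 arrays, the ipsilateral minus contralateral difference on the log2 scale was 2.84 for Ccnd2, 2.03 for Cdk6, 1.56 for Ccnd1, 0.31 for Cdk4 and 0.09 for Ccnd3. These correspond to 7.15-fold, 4.08-fold, 2.95-fold, 1.24-fold and 1.07-fold. A call required a 2-fold difference and a Benjamini–Hochberg adjusted p under 0.05 from limma over all probe sets whose mean log2 level reached 4.74, here named the filter level. Of the 19 probe sets 17 reached it, and 1 of these, a probe set of Ccnd2, was called higher in ipsilateral RGCs, where 0.244% of all probe sets tested were called. Its contralateral mean was under the filter level, so it was tested only through its high ipsilateral levels, and the same holds for 1 of the Cdk6 probe sets named next. With the samples of a round paired in the fit (the replicate block), 3 were called, 1 of Ccnd2 and 2 of Cdk6, where 0.208% of all were called, and the probe set called without the block was not among them. No member was called higher in contralateral RGCs, nor was any of the 36029 probe sets tested by limma with or without the block or by an unmoderated test, while 0.38% of them were higher there at an unadjusted p under 0.05 from limma.

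**Figure D1:**
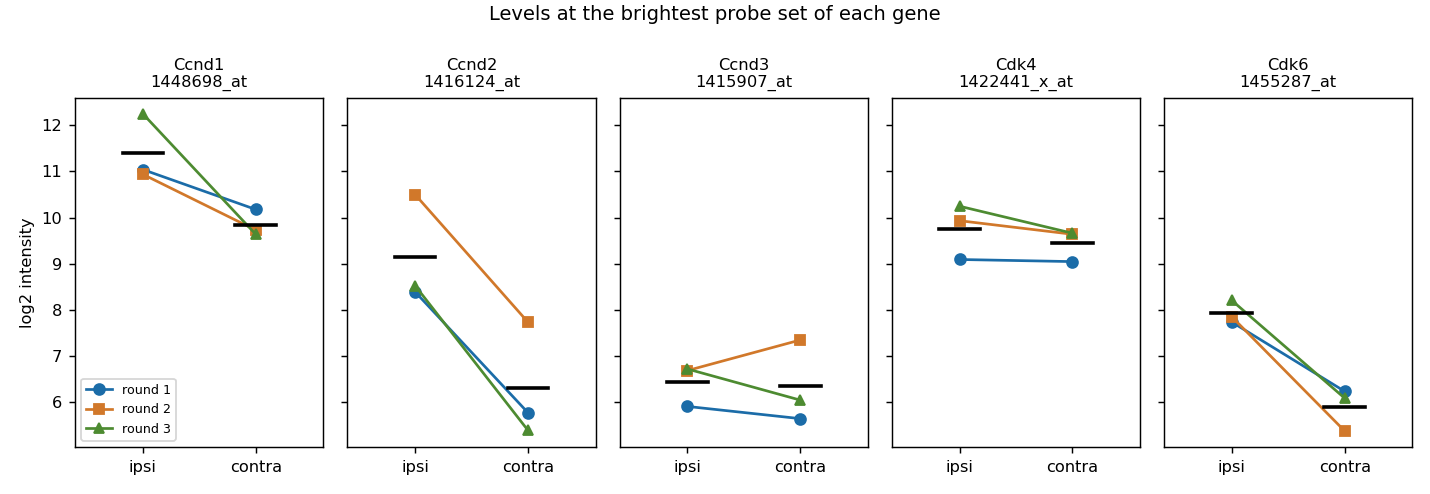
Log2 intensity of each member gene at its brightest probe set in the 3 ipsilateral (ipsi) and 3 contralateral (contra) samples. Each line joins the ipsilateral and contralateral values of a round, and black bars are group means. The lines of Ccnd1, Ccnd2 and Cdk6 fall from left to right in all 3 rounds with no overlap of the sides, those of Cdk4 fall slightly, and Ccnd3 goes up in round 2. Heights of different genes come from different probes and are not comparable.

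Over all 19 probe sets, 12 had a difference of 2-fold or more, against 2.32% of all probe sets tested, and 8 had it in each of the 3 rounds, against 0.833%. A higher level in the ipsilateral sample of all 3 rounds was found at 17 of the 19, and 1 of these 17 lay under the filter level. The same held for 16.7% of all probe sets tested. None was lower in all 3 rounds, where 19.7% of all probe sets were. All 3 ipsilateral arrays lay above all 3 contralateral arrays at 13 probe sets, against 3.26% of all. The reverse was found at 2.03% of all and occurred at none, as 19 probe sets would often show at that share. At an unadjusted p under 0.05 limma passed 13 probe sets, all higher in ipsilateral RGCs, as were 2.28% of all tested. At that level an unmoderated test passed 10 and limma with the replicate block passed 14. Shares of all probe sets were not counted for the unmoderated test and the block, so 10 and 14 have no background here. The median difference of the 19 probe sets was 1.56, and that of all probe sets tested was −0.02. Probe sets of 1 gene read the same RNA and are not replicates of each other. Ccnd1, Ccnd2 and Cdk6 are in the gene table the study drew from these same samples, so their direction here is not independent evidence. At the same thresholds that table holds more probe sets than are called here, among them every probe set of Ccnd1 and most of Ccnd2. It also holds probe sets higher in contralateral RGCs. The study does not name its test, and the reason for the unlike counts was not tested.

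Ccnd2 encodes cyclin D2, the main D cyclin of some neural precursors. At its brightest probe set, 1416124_at, the ipsilateral log2 levels were 8.39, 10.50 and 8.53 in rounds 1, 2 and 3. The contralateral levels were 5.78, 7.74 and 5.39. Round 2 was the highest on both sides, and the groups did not overlap. The means were 9.14 ± 1.18 (SD, n = 3) and 6.30 ± 1.26 (SD, n = 3). Within a round the difference hardly moved, with 2.62, 2.76 and 3.13, although the level itself moved by over 2 log2 units between rounds. The mean difference of 2.84 had an SE of 0.65 without the block (limma adjusted p = 0.160, not called) and 0.17 with it (limma adjusted p = 0.0170, called). In sorted bulk samples, fewer cells with the transcript and less transcript per cell cannot be told apart.

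The other 6 probe sets of Ccnd2 were also higher in the ipsilateral sample of all 3 rounds, with mean differences from 0.97 to 3.06. Different probe sets can read different regions of a transcript, and the array's names mark 1448229_s_at as shared by several transcripts, 1430127_a_at as shared by transcripts of 1 gene and 1455956_x_at as open to cross-hybridization. The called probe set was 1434745_at, with ipsilateral levels of 6.83, 8.66 and 7.01 and contralateral levels of 3.97, 4.27 and 5.10. It rose by 3.06 in ipsilateral RGCs (SE 0.52, limma adjusted p = 0.0267). Pairing the rounds gave an adjusted p of 0.101, and without contralateral replicate 1 it was 0.0772. Its differences of 2.86, 4.39 and 1.92 were spread more widely over the rounds than those of 1416124_at. Its contralateral mean of 4.45 was under the filter level, and with each contralateral array under that level raised to it the fold was 6.25 in place of 8.32.

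The smallest difference of Ccnd2 was at 1416122_at, with 0.90, 0.98 and 1.03 in the 3 rounds. This difference is 1.96-fold on the mean, just short of 2-fold, where the study's table lists just over 2-fold. It had an SE of 0.41 (limma adjusted p = 1) or 0.14 with the block (limma adjusted p = 0.0935). At 1455956_x_at the sides overlapped, since ipsilateral replicate 1 at 7.03 lay under contralateral replicate 3 at 7.51, yet each round still differed by 1.05, 1.61 and 0.96. The differences at 1416123_at and 1448229_s_at were 2.17 and 2.19, both largest in round 2. At 1430127_a_at the difference was 1.42, and its contralateral mean of 4.64 was under the filter level, where the same step gave a fold of 2.26 in place of 2.67. Of the 7 probe sets, 5 had their largest difference in round 2 and the other 2 had it in round 3, while 5 had their smallest difference in round 3 and 2 in round 1. Across the 6 arrays the other 6 probe sets had Pearson correlations with 1416124_at from 0.68 to 0.91, a description over 6 arrays that share the contrast between sides.

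**Figure D2:**
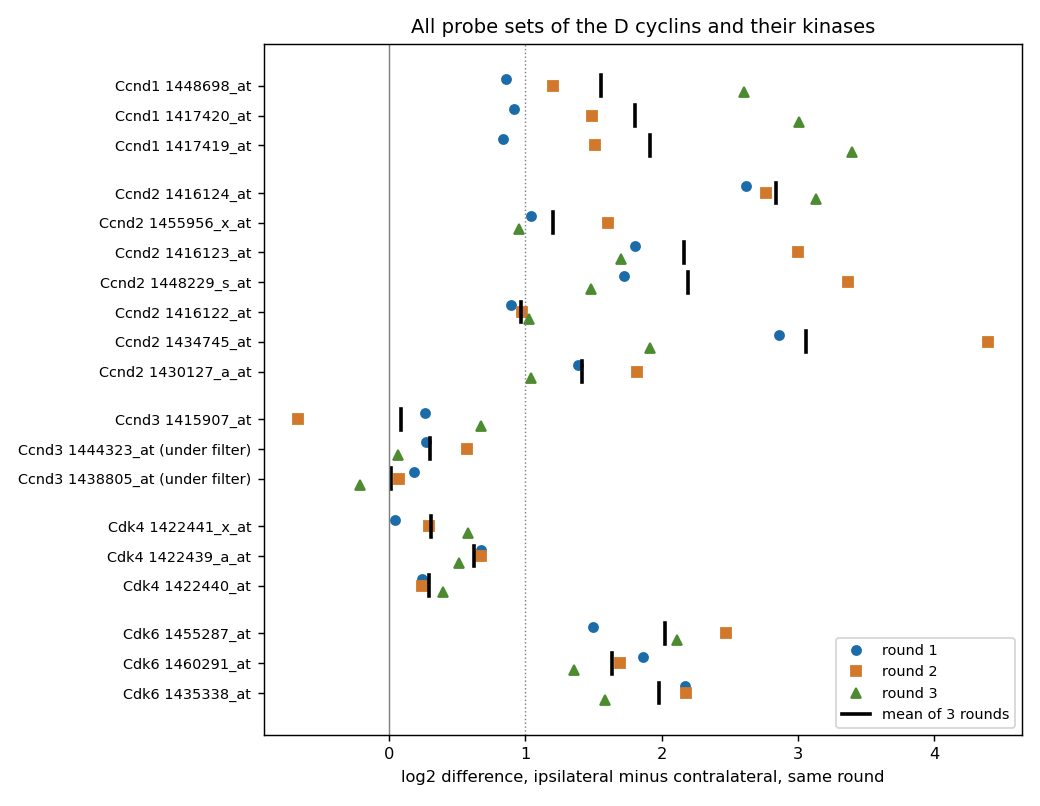
Ipsilateral minus contralateral difference in log2 level within each round (symbols) and its mean (black bars) at all 19 probe sets, with probe sets of a gene ordered from brightest to dimmest. The dotted line marks 2-fold. All symbols of Ccnd1, Ccnd2, Cdk4 and Cdk6 lie right of 0, round 3 stands apart at the 3 probe sets of Ccnd1, and at Ccnd2 round 2 is the largest at 5 of 7.

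Ccnd1 encodes cyclin D1. Its brightest probe set, 1448698_at, had ipsilateral log2 levels of 11.04, 10.94 and 12.24 and contralateral levels of 10.17, 9.73 and 9.64. All ipsilateral arrays were above all contralateral ones, with means of 11.41 ± 0.73 (SD, n = 3) and 9.85 ± 0.29 (SD, n = 3). At 10.63 the mean over all arrays was brighter than that of 97.2% of the probe sets on the array, so the transcript was read well above the dim end of the array on both sides. The differences within rounds were 0.86, 1.21 and 2.61, with a mean of 1.56 (SE 0.45, limma adjusted p = 0.455, and 0.188 with the block). It was not called.

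The other probe sets of Ccnd1 had the same order of rounds. At 1417420_at the difference was 0.92, 1.49 and 3.01, and at 1417419_at it was 0.84, 1.51 and 3.39. Their means of 1.81 and 1.91 were not called (limma adjusted p = 0.417 and 0.309, or 0.187 and 0.210 with the block). All 3 probe sets were 2-fold higher on the mean, none was 2-fold higher in each round because round 1 stayed under 1, and each had an unadjusted p under 0.05 in limma with and without the block and in the unmoderated test. In round 3 the ipsilateral array was the highest of the 6 at all 3 probe sets. The contralateral array of that round was the lowest at 1448698_at and 1417419_at, whereas at 1417420_at the contralateral levels of 8.28, 8.33 and 8.31 hardly differed. Without ipsilateral replicate 3 the difference at the brightest probe set was 1.14, and without ipsilateral replicate 2 it was 1.79. Correlations with the brightest probe set over the 6 arrays were 0.96 and 0.98.

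Ccnd3 encodes cyclin D3, a D cyclin of many tissues and best known in blood cells. Only 1415907_at reached the filter level. Its ipsilateral log2 levels were 5.91, 6.69 and 6.72 and its contralateral levels 5.65, 7.35 and 6.05. The sides overlapped and the sign turned between rounds, with differences of 0.26, −0.66 and 0.67. The mean of 0.09 had an SE of 0.49 (limma adjusted p = 1, and 0.923 with the block) and a 95% interval from −0.95 to 1.14, which leaves room for a 2-fold difference in the ipsilateral direction. Leaving out single arrays moved the mean from −0.26 (without contralateral replicate 1) to 0.59 (without contralateral replicate 2). The probe sets 1444323_at and 1438805_at had mean levels of 4.34 and 4.21, under the filter level, and differences of 0.31 and 0.02.

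Cdk6 encodes the D cyclin kinase that is more restricted in its tissues. At its brightest probe set, 1455287_at, the ipsilateral log2 levels were 7.74, 7.85 and 8.21 and the contralateral levels were 6.24, 5.38 and 6.09. The 3 ipsilateral arrays lay close together and above all contralateral arrays. The means were 7.93 ± 0.24 (SD, n = 3) and 5.90 ± 0.46 (SD, n = 3). The difference was smallest in round 1 and was 2.47 and 2.12 in rounds 2 and 3, with a mean of 2.03 (SE 0.41, limma adjusted p = 0.0759, and 0.0615 with the block), which missed the threshold in both fits.

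The dimmer probe sets of Cdk6 had differences of the same size and passed with the replicate block. At 1460291_at the ipsilateral levels were 7.54, 6.65 and 7.24 and the contralateral levels 5.68, 4.96 and 5.88, a difference of 1.64 (SE 0.43, limma adjusted p = 0.301, and 0.0497 with the block). At 1435338_at they were 5.58, 6.42 and 7.14 against 3.40, 4.24 and 5.55, a difference of 1.98 (SE 0.56, limma adjusted p = 0.429, and 0.0425 with the block). Both sides of 1435338_at had their lowest level in round 1 and their highest in round 3, and the differences were 2.18, 2.18 and 1.59. Its contralateral mean was under the filter level, and with each contralateral array under that level raised to it the fold was 2.58 in place of 3.94. All 3 probe sets of Cdk6 were 2-fold higher in each round with no overlap between sides.

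Cdk4 encodes the other D cyclin kinase, which most dividing cells make. At its brightest probe set, 1422441_x_at, the ipsilateral log2 levels were 9.09, 9.93 and 10.25 and the contralateral levels were 9.05, 9.64 and 9.66. The array's names mark 1422441_x_at as open to cross-hybridization. The sides overlapped there and the rounds differed by 0.05, 0.29 and 0.58. The mean of 0.31 had an SE of 0.43 (limma adjusted p = 1) and a 95% interval from −0.62 to 1.24. With the block the SE was 0.17 (limma adjusted p = 0.480) and the interval ran from −0.11 to 0.72, which is short of 2-fold. At 1422439_a_at all ipsilateral arrays, at 9.49, 10.05 and 9.95, lay above all contralateral arrays, at 8.81, 9.37 and 9.43, and the difference was 0.62 (limma adjusted p = 1, and 0.188 with the block). With the block the 95% interval at 1422439_a_at ran from 0.27 to 0.98, above 0 and short of 2-fold. Without the block it ran from −0.24 to 1.49, which includes 0 and reaches past 2-fold. At 1422440_at the difference was 0.29. None of the 3 probe sets was 2-fold higher, although each was higher in the ipsilateral sample of all 3 rounds.

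The 2 kinase genes, which serve the same cyclins, had side differences of 2.03 and 0.31, and the sequences just upstream of their start sites are shown to set them side by side. RefSeq promoter entries matched 3 of the 5 genes (Ccnd3, Cdk4 and Cdk6). The windows are the 250 bases before the start in build GRCm38.p6, plus strand, chr10:127063285-127063534 for Cdk4 and chr5:3343643-3343892 for Cdk6, 5′ to 3′. Capitals mark CACGTG, the E-box hexamer read by Myc and related factors, which is its own reverse complement, so that 1 search covers both strands and matches do not overlap.
Cdk4: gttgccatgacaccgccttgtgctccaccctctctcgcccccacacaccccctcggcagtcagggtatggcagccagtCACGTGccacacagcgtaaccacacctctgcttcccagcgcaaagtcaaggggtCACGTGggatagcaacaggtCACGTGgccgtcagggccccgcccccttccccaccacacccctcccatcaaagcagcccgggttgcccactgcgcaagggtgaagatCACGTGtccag
Cdk6: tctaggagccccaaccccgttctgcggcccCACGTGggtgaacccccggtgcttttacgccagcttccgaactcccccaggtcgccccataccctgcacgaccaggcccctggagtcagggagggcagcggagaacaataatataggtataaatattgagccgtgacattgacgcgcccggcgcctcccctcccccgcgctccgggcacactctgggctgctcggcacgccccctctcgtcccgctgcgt
The hexamer occurred 4 times in the Cdk4 window and 1 time in the Cdk6 window. Of 32851 RefSeq promoter windows of the same length, 6.02% held it at least 1 time and 0.0213%, or 7 windows, held it at least 4 times. A match describes the letters of the window, and binding was not measured.

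Because the arrays of a round share dye, sort and amplification, the members were also compared with each other within the array. For each of the 10 pairs of genes, the difference between their brightest probe sets was taken in each sample and compared between sides with an exact two-sided permutation test over the 6 samples, for which the smallest possible p is 0.1. The pairs of Ccnd2 or Cdk6 with Cdk4 or Ccnd3 reached that value, each with a Benjamini–Hochberg adjusted p of 0.25 over the 10 pairs. No pair can pass 0.05 with 3 arrays against 3.

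Ccnd2 exceeded Cdk4 in its side difference by 2.57, 2.47 and 2.55 in the 3 rounds, a mean of 2.53 with a 95% interval of 2.40 to 2.66 from the 3 rounds. This was the narrowest interval among the 10 pairs, it rests on 3 values, and it holds for the brightest probe set of each gene only. Over all probe sets of a gene the side difference ran from 0.97 to 3.06 for Ccnd2 and from 0.29 to 0.62 for Cdk4. The size of the gap between the 2 genes is therefore less certain than the interval. The side difference of Cdk6 exceeded that of Cdk4 by 1.45, 2.18 and 1.53, and the interval of Cdk4 minus Cdk6 was −2.71 to −0.73. Ccnd2 exceeded Ccnd3 by 2.74 (95% interval 1.28 to 4.21). For Ccnd3 minus Cdk6 the value was −1.94 with an interval of −4.52 to 0.65.

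The side difference of cyclin D1 was the smaller of the pair with cyclin D2 in each round, with Ccnd1 minus Ccnd2 at −1.75, −1.56 and −0.52. The mean of −1.28 had an interval of −2.92 to 0.36 (exact permutation p = 0.4, adjusted p = 0.5), so these differences were not separated. Ccnd2 minus Cdk6 was 0.81 (95% interval −0.31 to 1.93, exact permutation p = 0.5, adjusted p = 0.556) and Ccnd1 minus Cdk6 was −0.47 (95% interval −2.68 to 1.74, exact permutation p = 0.3, adjusted p = 0.429). Probes can respond to the same change in RNA with different slopes, which these values include.

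The genes whose level followed Ccnd2 most closely over the 6 arrays, among 15341 other genes, were Parvg, Gsta4, Pkib, Terf1 and Polg, with Pearson correlations from 0.983 to 0.995. All 5 were higher on the ipsilateral side of all 3 rounds, but by less than Ccnd2, from 0.54 for Parvg to 1.45 for Gsta4, and none was called. For Ccnd1 they were Cenpe, Fgf15, Timeless, Cdca2 and Myb, with correlations from 0.990 to 0.995 and differences from 1.08 to 2.63, and again none was called. Cenpe encodes a mitotic kinesin and Fgf15 a growth factor of retinal progenitors. Like Ccnd1, all 5 differed most in round 3, for example Cenpe by 1.70, 1.93 and 4.18. Both sets of 5 genes were picked by their correlation over these same 6 arrays. A shared direction and order of rounds therefore follow from the choice and are no separate result.

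Next in the pathway are the proteins that restrain the D cyclin kinases. Of 7 CDK inhibitor genes measured, 0 were called in either direction by limma with or without the block. At an unadjusted p under 0.05, 0 passed in limma and 1 was lower in the unmoderated test, for which no share of all genes was counted. The 7 genes had a median difference of 0.03, where that of all genes was −0.01. Cdkn2c, which inhibits Cdk4 and Cdk6, had the largest positive difference of 0.55 (SE 0.42). Cdkn1c, an inhibitor made as cells leave the cycle, had −0.43 (SE 0.38), and Cdkn1b had 0.29 (SE 0.39). Of the 3 retinoblastoma family genes, Rb1 had −0.36 (SE 0.43), Rbl2 −0.16 (SE 0.40) and Rbl1, which dividing cells make, 0.77 (SE 0.48). None of the 3 was called or passed an unadjusted p under 0.05 in limma or the unmoderated test.

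Genes downstream of the D cyclin kinases differed in the direction of Ccnd1. All 9 measured E2F and DP factors had a higher ipsilateral mean, 7 of them in all 3 rounds, where 17.6% of all genes were. Their median difference was 0.57, and E2f8 had the largest with 1.44, 1.43 and 2.77 in the 3 rounds, followed by E2f7 and Tfdp2 with means of 0.86 and 0.84. Of 17 replication genes that E2F factors switch on, 11 were 2-fold higher, where 2.75% of all genes were, and 13 were higher in all 3 rounds. Their median was 0.69, 0.68 and 1.78 in the 3 rounds. Rrm2, a subunit of ribonucleotide reductase, had the largest mean difference with 2.39 (SE 0.49, limma adjusted p = 0.0794), and the replicative helicase subunits Mcm3 and Mcm4 had 1.92 and 1.88. Of the cyclins and kinases that act after the D cyclins, 4 of 10 were 2-fold higher, with Ccna2 at 2.00, Ccnb2 at 1.69 and Cdk1 at 1.48. No gene of any pathway list was 2-fold lower, but only 0.222% of all genes were, so lists of this size would seldom hold one. In these 3 lists 0 genes were called by limma with or without the block. At an unadjusted p under 0.05, 1, 9 and 3 were higher in limma, and 2, 5 and 1 in the unmoderated test. In limma 2.28% of all probe sets were higher at that level, and the share of all genes was not counted for either test.

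Genes for CDK activation and D cyclin turnover leaned the other way by a small amount. Their median was −0.20, 8 of 10 had a lower ipsilateral mean, and Fbxo4, an F-box protein implicated in cyclin D1 breakdown, had the largest difference of −0.98 (SE 0.47) with −1.76, −0.88 and −0.30 in the 3 rounds. Ccnh and Fbxo31 followed with −0.37 and −0.31. All 6 genes of the list of Cdk5, its activators and cyclins of resting neurons had lower ipsilateral values in every round, where 20.2% of all genes were, by 0.18 to 0.49, led by Cdk5r1, Cdk5 and Cdk5r2 with −0.49, −0.47 and −0.38. In these 2 lists 0 genes were called by limma or had an unadjusted p under 0.05 in limma or the unmoderated test.

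**Figure D3:**
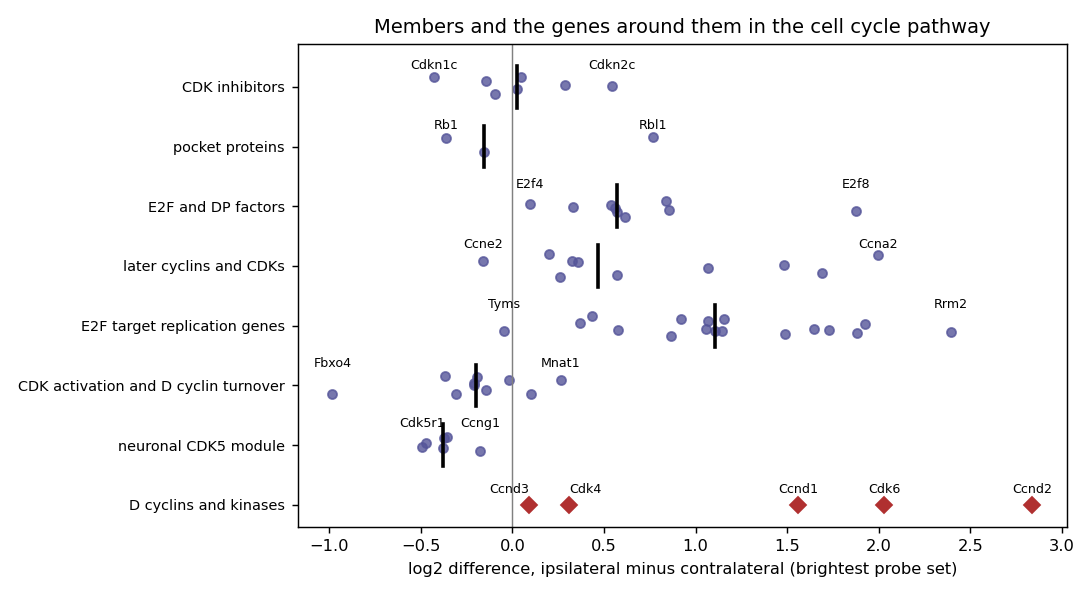
Ipsilateral minus contralateral log2 difference (mean of 3 rounds, brightest probe set) of the member genes (diamonds) and of the other genes of the pathway by list (circles, with black bars for list medians and the extremes named; vertical spread of circles is for legibility). CDK inhibitors and pocket proteins lie around 0, replication genes reach 2.39, and Ccnd2 at 2.84 lies to the right of all circles.

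Most markers of dividing cells and of retinal progenitors were higher on the ipsilateral side, as Ccnd1, Ccnd2 and Cdk6 were. All 17 measured markers of cycling cells had a higher ipsilateral mean, 13 were 2-fold higher and 2 were called, where 0.358% of all genes were. These were Spc25 (3.12) and Cenpf (2.92), of which neither was called with the block. Mki67 and Top2a, defining markers of dividing cells, had differences of 2.46 and 2.32. The list median was 1.24, 1.45 and 2.82 in rounds 1, 2 and 3, and its summed level on the log2 scale ran from 12.42 to 13.91 in ipsilateral and from 10.84 to 11.09 in contralateral samples. Of 15 progenitor markers, all had a higher ipsilateral mean, 12 of them in all 3 rounds, and 9 were 2-fold higher, where 2.75% of all genes were. Six3 (0.02), Pax6 (0.03) and Hes1 (0.10) hardly differed and changed sign between rounds. Sox2 (2.68), Sox9 (2.53) and Sfrp2 (2.29) were called, none of them with the block. The list had medians of 1.23, 1.56 and 1.94 and summed levels of 13.90 to 14.74 against 13.25 to 13.67. Ccnd1 had the order of rounds of both lists, with its largest difference in round 3 and its smallest in round 1. Round 3 had the largest difference at 2 of the 7 probe sets of Ccnd2 and at 0 of the 3 of Cdk6. Slc1a3, with 1.59 at its brightest probe set, was called at 2 other probe sets with 2.65 and 3.16. In the study's tissue sections, Ccnd2 mRNA was mainly in proliferating cells of the peripheral retina, more so ventrally, with lower levels in the Zic2 zone. Its immunostaining rarely found cyclin D2 protein in cells positive for Zic2 and Islet proteins. The study describes cyclin D1 as even across proliferating regions of the retina. On these arrays the part of dividing cells and progenitors in the differences of the D cyclins and kinases was not tested.

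Markers of microglia and macrophages, which are no RGC genes, moved with the side as well. All 18 measured had a higher ipsilateral mean, 16 of them in all 3 rounds, where 17.6% of all genes were. Trem2 (0.07) and Spi1 (0.16) hardly differed and were lower in round 3. By limma 9 were called, where 0.358% of all genes were. With the block 8 were called, for which a share of all genes was not counted. The contralateral means of C1qb, Csf1r, C1qc and Aif1, which were called, were under the filter level. These genes were therefore tested only through their high ipsilateral levels. With contralateral arrays raised to that level their differences were at least 5.55, 5.34, 4.02 and 3.90. The other called genes were Ctss (5.29), Laptm5 (4.61), Tyrobp (4.30), P2ry12 (3.35) and Fcrls (2.95), and Ptprc was called at another probe set (2.55). C1qa, another defining marker, had 2.67 and was not called (limma adjusted p = 0.0794). The list's summed level ran from 13.13 to 13.77 in ipsilateral and from 9.29 to 10.46 in contralateral samples, where 6 of the 18 genes had a mean under the filter level. Its median of 3.33, 3.12 and 1.67 in the 3 rounds was smallest in round 3. Round 3 also had the smallest difference at 5 of the 7 probe sets of Ccnd2, among them the called one, and at 2 of the 3 of Cdk6, whereas it had the largest at the other 2 of Ccnd2 and at all 3 of Ccnd1. The sort took all dye-filled cells, and the part of these cells in the differences of the D cyclins and kinases was not tested.

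Markers of the labelled cell type were read above the filter level on both sides. Of 17 measured RGC markers none had a group mean under the filter level, but not all were bright. Pou4f3, for example, had means of 5.95 in ipsilateral and 6.53 in contralateral samples. The summed level of the 17, to which the brightest genes add most, ran from 15.46 to 15.68 in ipsilateral and from 15.74 to 16.02 in contralateral samples. All 17 had lower values on the ipsilateral side in every round, by 0.18 to 0.92 on the mean with a median of −0.45, where 20.2% of all genes were lower in every round. Of them 0 were called by limma with or without the block. At an unadjusted p under 0.05, 1 was lower in limma and 5 were lower in the unmoderated test. In limma 0.38% of all probe sets were lower on the ipsilateral side at that level, and shares of all genes were not counted. Chrnb3 and Slc17a6 had the largest differences, both −0.92, followed by Thy1 with −0.83, and Isl1, a defining factor, had −0.35. Pou4f1 (−0.45) and Isl2 (−0.57) are also on the list, and the study names both as markers of contralateral RGCs. It reports Isl1 and Pou4f2, which was not measured here, at similar levels on both sides. Zic2, the factor that directs axons to the ipsilateral side, differed by 1.59, 2.94 and 2.98, and since rounds were chosen for it, its level is no independent check.

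**Figure D4:**
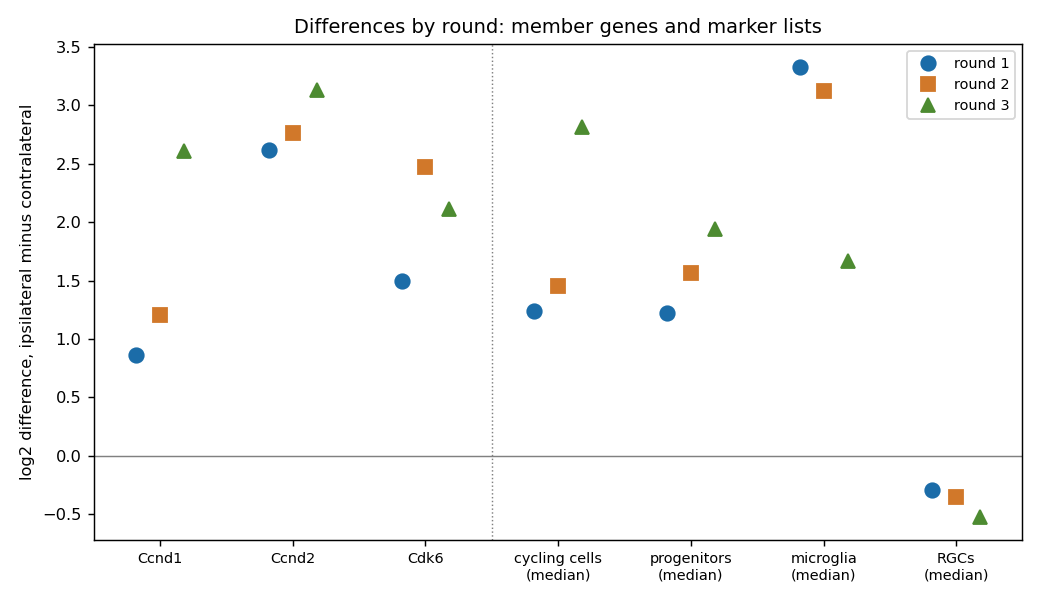
Ipsilateral minus contralateral log2 difference in each round for Ccnd1, Ccnd2 and Cdk6 at their brightest probe sets (left of the dotted line) and the median over genes of 4 marker lists (right). Ccnd1, cycling cells and progenitors are highest in round 3, as is Ccnd2 at this probe set though at only 2 of its 7, microglia are lowest in round 3 as are 5 of the 7 probe sets of Ccnd2, and RGC markers lie just under 0 in every round.

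Of the remaining marker lists, photoreceptor, amacrine and horizontal cell genes had a median of 0.64 with none of 10 called. Otx2 (2.20), Crx (1.43) and Prox1 (1.26) led this list, but the study's qPCR did not find Otx2 higher in ipsilateral cells. Neurogenic precursor genes had a median of 0.60, with Neurod4 called at 2.59 (limma adjusted p = 0.0246, and 0.0455 with the block) and Atoh7 at 2.04 and Neurod1 at 1.17 not called. Ciliary margin genes had a median of 0.45, with Tgfb2 (2.69) and Zic1 (2.57) called of 11, where 0.358% of all genes were called. Gja1, of the same list, differed by 0.45 at its brightest probe set and was called at 4 others with 3.69 to 4.12, 1 of them also with the block. Genes of endothelial cells and pericytes, of astrocytes, of lens and pigment epithelium and of red blood cells had medians of 0.00, 0.03, −0.04 and 0.17 with none called, and their largest differences were those of Kdr (1.02), Pdgfra (−0.37), Mip (−0.13) and Hba-a1 (0.23).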

How the data were processed

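The authors deposited log2 intensities per probe set from Affymetrix mouse genome arrays. Per the submitters' processing notes they were made by RMA, which corrects background, normalizes arrays and summarizes probes, in Affymetrix Expression Console 1.1. Whether all arrays were normalized together is not given in the sources used here: array medians were 5.81, 6.70 and 6.33 for ipsilateral replicates 1, 2 and 3 and 5.80, 6.65 and 6.26 for contralateral ones, and 212 to 932 probe sets had identical values in both arrays of a round but 0 to 2 in arrays of different rounds. Levels are therefore best compared within a round. The number of arrays limits the precision, with a median SE of 0.44, or 0.17 with the replicate block.

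From 45101 rows 64 controls were left out. Probe sets with a mean log2 level at or above the 20th percentile (4.74) were kept, which gave 36029 probe sets and 15346 genes at the brightest probe set of each. In the array's annotation 34945 probe sets carry 1 symbol, 932 carry several and 9160 carry no symbol, and 34741 of the 34945 were found in RefSeq by Entrez identifier. limma 3.58.1 in R 4.3.3 (lmFit, eBayes) compared the sides with no block, as the study names no paired test. A call took the study's thresholds of 2-fold and a Benjamini–Hochberg adjusted p under 0.05. Where a contralateral mean is under the filter level, a bound of the fold was taken with each contralateral array under that level raised to it.

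The replicate numbers pair the samples, because per the study both sides of a round were treated and prepared together. After centring each probe set on its group means, arrays of the same number correlated at 0.511, 0.541 and 0.612 and others at −0.353 to −0.208.

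The member genes and all gene lists were chosen with earlier results of these data known, so counts over them are descriptions. The text names all members, up to 3 genes with the largest difference of each list with any called member, Zic2 and defining markers, and the 5 genes most correlated with Ccnd2 and Ccnd1. Alternatives were the replicate block, no filter or a 50th percentile filter, no fold threshold, a second quantile normalization, centring on medians, array weights, a robust fit with an intensity trend, an unmoderated test, the mean of a gene's probe sets and leaving out each array. The block with quantile normalization was added after seeing the data. The code was tested on simulated data.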

Additional observations from a re-analysis of the deposited data

How the results depend on the processing

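Of the 19 member probe sets, 1 was called with the settings of the report, and also with no filter, with no fold threshold and after a second quantile normalization. The count was 3 with the replicate block, 3 with a filter at the 50th percentile, 2 after centring arrays on their medians, 6 with an intensity trend and robust estimation, 13 with array weights, 0 with an unmoderated test, and 2 with the replicate block and a second quantile normalization, a setting chosen after seeing the data. Leaving out 1 array gave 0 (without contralateral replicate 1) to 8 (without ipsilateral replicate 1), and 2 without contralateral replicate 2. Over the whole array 88 probe sets were called. This count was 179 with the trend, 1149 with array weights, whose estimation stopped before it converged, 0 with the unmoderated test, and 53 (without ipsilateral replicate 3) to 220 (without ipsilateral replicate 1) when 1 array was left out, with 56 without contralateral replicate 3.

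The Ccnd2 difference passed the threshold with the replicate block (2.84), with the stricter filter (2.84, limma adjusted p = 0.0402), with the trend (2.84), with array weights (3.05), with the block and quantile normalization together (2.89) and as the mean of all probe sets of the gene (1.98, limma adjusted p = 0.0396). The Cdk6 difference passed with the stricter filter (2.03), the trend (2.03), array weights (2.13) and the mean of its probe sets (1.88, limma adjusted p = 0.0298). Ccnd1 passed with the trend (1.56, limma adjusted p = 0.0120) and array weights (2.42). Why these settings differ was not tested, save that the stricter filter tests fewer probe sets (22519). Without single arrays the difference ran from 2.16 (without ipsilateral replicate 2) to 3.55 (without contralateral replicate 2) for Ccnd2, which passed without contralateral replicate 2 or ipsilateral replicate 1, and from 1.77 (without contralateral replicate 2) to 2.20 (without contralateral replicate 1) for Cdk6, which passed without ipsilateral replicate 1. Cdk4 kept its sign (0.06 to 0.64). Ccnd3 turned from 0.09 to −0.26, −0.03, −0.05 and −0.06 without contralateral replicate 1, ipsilateral replicate 2, ipsilateral replicate 3 and contralateral replicate 3, and reached 0.59 without contralateral replicate 2. The replicate block changed the call of 4 member probe sets, those of Ccnd2 and Cdk6 named in the report, and of no other member.

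The centring and scaling alternatives moved the median of all probe sets by less than 0.1. Fits that leave out an array assume that the remaining arrays of that side vary like the others. At 1444323_at and 1438805_at of Ccnd3, and on the contralateral side of 1434745_at, 1430127_a_at and 1435338_at, levels under the filter level limit what can be read.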
